A study of Homo sapiens with 6 samples.

Results

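The 42 genes described here act in G2 phase and mitosis: cyclins with CDK1 and its activator, mitotic kinases, the spindle checkpoint, the machinery of anaphase, mitotic kinesins, centromere and kinetochore proteins, the chromosomal passenger complex, spindle and chromosome organisers, and cytokinesis proteins. They were taken by symbol from a table of 60612 Ensembl gene identifiers, and each of the 42 had exactly 1 row there. RNA was sequenced from U937, an established human myeloid cell line that the labels describe as acute myeloid leukemia with a WT genotype. The line is grown in RPMI-1640 with 10% serum. For the experiment, all cells were held without serum for 36 h, either with 1 µM of a compound known only by the code name B2 or with the same concentration of its solvent, DMSO. Each group had 3 libraries, numbered 1 to 3 in the labels, with no statement of what the number stands for or of whether separate cultures were used. Every p-value below is therefore relative to the variation among 6 libraries that could be technical repeats.

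Entry into mitosis is driven by CDK1 bound to cyclin B. PLK1 and the Aurora kinases then build the spindle, and the spindle checkpoint holds the anaphase-promoting complex in check until every kinetochore is attached. Release of CDC20 lets that complex tag securin and cyclin B for destruction, so the sister chromatids part and the cell divides. Transcripts of these genes build up late in the cell cycle of dividing cells and are low in cells that have left it. In quiescent cells many of the promoters are held silent by the DREAM complex, which binds an element called the CHR, and in dividing cells they are switched on by B-MYB and FOXM1, often beside CCAAT boxes bound by NF-Y.

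Because these 2 promoter elements are what much of the group is known for, promoters that hold both are shown first. RefSeq promoters (GRCh38.p14, 250 bases before to 50 after the start) were matched for 35 of the 42 genes. The letters TTTGAA or TTCGAA, searched as the CHR core on both strands, were in 25 of the 35 (71.4%), against 16.4% of all 35116 promoters in the table and 11.2% of the 11468 promoters of genes tested below. CCAAT on either strand was in 28 (80.0%), against 34.6% of all promoters, and 21 (60.0%) held both, against 6.38%. Neither motif contains the other, though neighbouring matches can share an end base. Of 65 promoters matched for a wider list of G2/M genes, 40.0% held both, whereas among 39 DNA replication genes 2 promoters (5.13%) did. A match describes letters in this window and is not evidence of binding. The following 250-base stretches before the start, all on the plus strand and written 5′ to 3′, belong to the first gene of each role with both motifs inside those 250 bases, up to 6 roles, with KIF4A added after its values were seen because its level turned out to differ between libraries. No gene of the spindle checkpoint is shown. BUB1 and MAD2L1 held the CHR core only after the start, BUB1B held no CCAAT box, and BUB3 and TTK had no matched promoter. Capitals mark the CHR cores and the CCAAT boxes, on either strand.
CCNB2, cyclin B2, chr15:59104896-59105145: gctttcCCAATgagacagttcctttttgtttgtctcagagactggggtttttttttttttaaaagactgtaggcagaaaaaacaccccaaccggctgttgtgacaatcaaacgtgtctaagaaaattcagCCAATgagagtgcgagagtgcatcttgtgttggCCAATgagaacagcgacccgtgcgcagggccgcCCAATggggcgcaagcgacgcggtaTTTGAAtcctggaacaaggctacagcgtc
PLK1, polo-like kinase, chr16:23678639-23678888: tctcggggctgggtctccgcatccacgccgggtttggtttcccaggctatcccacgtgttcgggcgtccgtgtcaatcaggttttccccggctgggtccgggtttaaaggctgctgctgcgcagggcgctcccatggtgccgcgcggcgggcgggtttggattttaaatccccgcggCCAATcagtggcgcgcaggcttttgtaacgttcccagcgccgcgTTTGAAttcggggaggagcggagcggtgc
CDC20, the activator of the anaphase-promoting complex, chr1:43358731-43358980: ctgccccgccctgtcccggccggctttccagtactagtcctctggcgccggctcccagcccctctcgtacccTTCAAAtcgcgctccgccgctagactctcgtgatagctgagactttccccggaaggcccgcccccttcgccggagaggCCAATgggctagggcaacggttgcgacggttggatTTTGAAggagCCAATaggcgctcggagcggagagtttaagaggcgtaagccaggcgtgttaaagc
KIF11, the kinesin that pushes spindle poles apart, chr10:92592880-92593129: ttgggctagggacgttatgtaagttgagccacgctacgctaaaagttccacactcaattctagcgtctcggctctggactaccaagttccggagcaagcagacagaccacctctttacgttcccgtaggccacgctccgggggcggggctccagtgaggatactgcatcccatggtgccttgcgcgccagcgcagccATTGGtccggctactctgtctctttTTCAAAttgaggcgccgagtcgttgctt
KIF4A, a chromosome-bound kinesin, chrX:70289854-70290103: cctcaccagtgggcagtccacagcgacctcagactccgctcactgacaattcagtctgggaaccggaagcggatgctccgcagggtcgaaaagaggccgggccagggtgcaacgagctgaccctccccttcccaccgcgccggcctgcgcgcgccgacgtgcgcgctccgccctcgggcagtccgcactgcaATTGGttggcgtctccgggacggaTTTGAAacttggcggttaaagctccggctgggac
CENPA, the centromeric histone H3 variant, chr2:26785806-26786055: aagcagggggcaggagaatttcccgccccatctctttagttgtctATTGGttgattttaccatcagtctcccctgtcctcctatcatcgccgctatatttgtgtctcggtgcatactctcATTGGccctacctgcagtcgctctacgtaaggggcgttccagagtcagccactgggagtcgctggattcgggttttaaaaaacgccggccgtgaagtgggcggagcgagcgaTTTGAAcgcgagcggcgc
INCENP, the scaffold of the passenger complex, chr11:62123761-62124010: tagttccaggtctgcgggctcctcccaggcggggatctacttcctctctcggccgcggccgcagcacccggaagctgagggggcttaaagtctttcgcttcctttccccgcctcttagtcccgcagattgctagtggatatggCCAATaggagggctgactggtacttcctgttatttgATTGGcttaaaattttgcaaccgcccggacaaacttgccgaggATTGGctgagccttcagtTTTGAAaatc
In CCNB2 and PLK1 the CHR core began 29 bases before the start, in KIF11 28, in KIF4A 34, in CENPA 18 and in INCENP 10. CDC20 had one core 65 and another 178 bases before its start. CCNB2 held 4 CCAAT boxes and INCENP 3, while PLK1, KIF11 and KIF4A held 1 each.

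Library totals were 61150740 to 78431054 counts, and the lowest count of any of the 42 genes in any library was 261, so counting error was small beside the differences between libraries. Levels are given in CPM, a gene's counts relative to the library total after scaling with edgeR's TMM factors. Of the 14 myeloid markers, ELANE and CTSG were high in all libraries while MPO stayed between 0.28 and 1.67 CPM. The 14 summed to 7047.6, 6488.4 and 11424.5 CPM in B2 libraries 1, 2 and 3. In the DMSO libraries of the same numbers the sums were 9799.0, 6119.5 and 12050.6 CPM. The 2 libraries numbered 3 stood apart: 15 macrophage markers summed to 1914 CPM (B2) and 2159 CPM (DMSO) there and to 168 to 294 CPM in numbers 1 and 2, with MRC1 at 0 throughout. T and B cell markers summed to 7.79 to 12.3 CPM, with CD3D, CD3E, CD3G and MS4A1 at 0 in every library, and fibroblast markers to 1.74 to 4.45 CPM. Exons of 4 of the 42 genes overlap another gene on the same strand in GENCODE 29 (BUB1B, CENPA, NUSAP1 and PRC1), and 14 overlap a gene on the other strand. With the strand setting of the counting not given, reads there cannot be assigned with certainty.

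All 42 genes were expressed and passed the filter on low counts. Compared per kilobase of exon, the mean level over the 6 libraries spanned a 136-fold range, from 148 CPM per kb for TPX2, which activates Aurora A on the spindle, to 1.08 for CENPE, a kinetochore kinesin. CDC20 followed TPX2 with 125 CPM per kb, and CDCA8, KIF2C, PLK1 and AURKB lay between 50.2 and 57.9. At the low end, KIF11 averaged 2.34 CPM per kb and ECT2, which activates RhoA for cytokinesis, 1.8. Partners in one complex were not always close in level. Within the NDC80 complex, which ties microtubules to kinetochores, NDC80 and NUF2 were near each other per length, with ratios of 0.66 to 1.15 across libraries, while SPC24 exceeded NDC80 between 2.22-fold and 6.67-fold. AURKB stayed at 3.35 to 3.75 times the level of BIRC5 per length in all 6 libraries, although both varied between them. The ratio of CCNB1 to CCNB2 was also narrow, at 1.06 to 1.3, whereas CCNB1 over CDK1 ranged from 2.61 to 6.26. AURKB over CDCA8, another gene of the passenger complex, ranged from 0.73 to 1.21, and SPC24 over SPC25 from 0.58 to 2.03.

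The first comparison asked whether B2 changed these transcripts. No member passed the test. The summed level of the 42 genes was 3749, 4103 and 2245 CPM in B2 libraries 1, 2 and 3 and 3379, 4361 and 2339 CPM in the DMSO libraries of the same numbers, so the groups overlapped and their means were 3366 ± 987 CPM (SD, n = 3) and 3360 ± 1011 CPM (SD, n = 3). In bulk RNA, fewer cells in G2 and mitosis cannot be told apart from less of this RNA per cell. By edgeR's quasi-likelihood test with Benjamini-Hochberg adjustment, 0 of the 42 passed an adjusted p of 0.05, as did 0 of all 17224 genes tested (0%), and the adjusted p of each of the 42 was 1.00. At an unadjusted p under 0.05 there were 0 members against 85 genes overall (0.493%). DESeq2 and limma-voom called 0 of the 42 as well. With the replicate number as a block the count was also 0, and 1 member against 1.32% of all genes had an unadjusted p under 0.05. Log2 fold changes of B2 over DMSO ran from -0.60 for BUB1B to 0.52 for PRC1, with 15 positive and 27 negative, a median of -0.14 and a median of -0.08 over all tested genes. The median of the 42 was 0.01 without B2 replicate 3 and 0.05 without DMSO replicate 2, and -0.27 without B2 replicate 2 and -0.24 without DMSO replicate 3, so its sign rested on single libraries. With both number 3 libraries left out and the number as a block, 0 of the 42 and 48 of all genes were called, and 23 of the 42 fold changes were negative with a median of -0.05.

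The standard errors (SE) of these fold changes, 0.25 to 0.69 with a median of 0.36, set what could be seen. All 42 of the 95% intervals included 0, and 19 of them lay wholly inside a 2-fold change in either direction. The intervals of the other 23 reached past 2-fold in at least 1 direction. Only CDK1 had all 3 B2 libraries below all 3 DMSO libraries, an arrangement found in 1.63% of all genes, and no member had them all above (1.94% of all genes). Paired by replicate number, 10 members were lower with B2 in 3 of 3 pairs (9.2% of all genes) and 1, PRC1, was higher in 3 of 3 (6.71%). The summed level of epithelial markers separated the groups, at 47.4 to 63.5 CPM with B2 and 6.15 to 42.9 CPM with DMSO. Gene by gene, 3 of the 9 tested had all B2 libraries above all DMSO libraries (1.94% of all genes), among them ERBB2 and KRT8. All 9 had positive fold changes, and none passed the test. ERBB2 was 13.5, 13.7 and 19.6 CPM in the B2 set and 1.81, 2.56 and 11.6 CPM in the DMSO set, and KRT8 was 11, 10.4 and 11.2 CPM in the B2 set and 0.66, 1.98 and 9.22 CPM in the DMSO set. Their part in the values of the 42 genes was not tested.

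**Figure D1:**
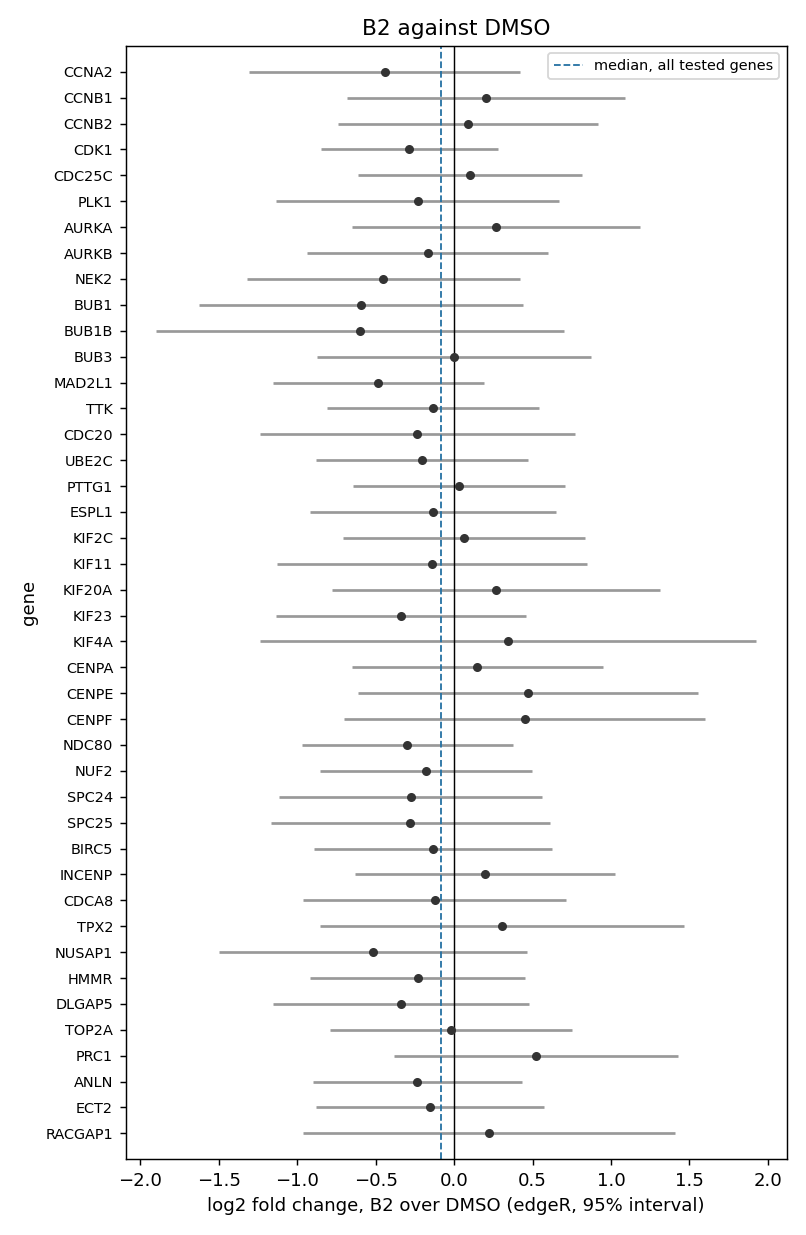
Log2 fold change of B2 over DMSO (x axis) for each of the 42 genes (y axis), with 95% intervals from edgeR as horizontal bars, 3 libraries a group. Every interval crosses 0 and the points run from -0.60 (BUB1B) to 0.52 (PRC1) around the dashed median of all tested genes, -0.08.

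Among the cyclins, CDK1 and its activator CDC25C, 3 of 5 fold changes were positive and the median was 0.09. CDK1, the kinase itself, was at 36.9, 39.3 and 30.2 CPM in the B2 set and 42, 44.9 and 42.7 CPM in the DMSO set. Its 3 B2 libraries were all lower, yet by little: the log2 fold change was -0.28 (SE 0.25). CCNB1, cyclin B1, was at 150, 158 and 80.3 CPM in the B2 set against 101, 164 and 72.5 CPM in the DMSO set. Here the 2 number 3 libraries were the lowest of all 6 and the groups overlapped, with a log2 fold change of 0.20 (SE 0.39). CCNB2 had the same order of libraries, at 132, 134 and 79.5 CPM against 104, 152 and 67.6 CPM. CCNA2, cyclin A2, which acts from S phase into G2, reached 97.0 CPM in DMSO replicate 2 and lay between 38.9 and 56.7 CPM in the other 5 libraries. CDC25C, the phosphatase that activates CDK1, lay between 8.35 and 12.5 CPM.

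The mitotic kinases had 3 negative fold changes out of 4 (median -0.20). PLK1 stood at 270, 253 and 173 CPM in the B2 set and 436, 214 and 168 CPM in the DMSO set. DMSO replicate 1 was far above the rest, and the groups overlapped, with a log2 fold change of -0.23 (SE 0.39) that became 0.29 without that library. AURKB, the kinase of the passenger complex, had the same order of libraries, at 115, 112 and 91.0 CPM against 179, 94.7 and 84.1 CPM. AURKA, the spindle pole Aurora kinase, went the other way in that library, which held its lowest level: 92.5, 97.8 and 58.8 CPM in the B2 set and 40.5, 109 and 57.8 CPM in the DMSO set. NEK2, a centrosome kinase, was highest in DMSO replicate 2 at 22.6 CPM and ranged from 9.52 to 16.6 CPM elsewhere.

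All 5 spindle checkpoint genes had negative fold changes, with a median of -0.48, and none passed the test. BUB1B, which encodes the checkpoint protein BubR1, was at 37.8, 57.4 and 25.6 CPM in the B2 set and 27.3, 119 and 36.9 CPM in the DMSO set. A single library, DMSO replicate 2, lay above all others, and without it the log2 fold change of -0.60 (SE 0.57) turned to 0.29. BUB1, a checkpoint kinase at the kinetochore, had the same high library, with 122 CPM against 34.2 to 59.5 CPM in the other 5, and its fold change of -0.59 became 0.04 without it. MAD2L1, which binds and restrains CDC20, had the smallest unadjusted p of the 42 by edgeR, 0.137, at 21.1, 24.4 and 21.9 CPM in the B2 set and 33.5, 38.1 and 22.5 CPM in the DMSO set. Its highest B2 library overlapped DMSO replicate 3, and the log2 fold change of -0.48 (SE 0.29) stayed negative when any 1 library was left out, from -0.67 to -0.36. BUB3, the adaptor of BUB1 and BUB1B, had a fold change of 0.00, and TTK, the kinase that starts checkpoint signalling, was highest in DMSO replicate 3 at 17.7 CPM and lowest in B2 replicate 3 at 11 CPM.

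For anaphase, CDC20 was at 289, 260 and 155 CPM in the B2 set and 452, 228 and 149 CPM in the DMSO set. The order of the libraries was that of PLK1, with the top value in DMSO replicate 1 and both number 3 libraries at the bottom. Its log2 fold change of -0.23 (SE 0.44) became 0.32 without DMSO replicate 1. ESPL1, the separase that cuts cohesin, was again highest there at 227 CPM and ranged from 99.4 to 178 CPM in the others. PTTG1, which encodes securin, the inhibitor of separase, lay between 39.3 and 69.8 CPM with a fold change of 0.03, and UBE2C, the ubiquitin-conjugating enzyme of the anaphase-promoting complex, between 6.67 and 9.67 CPM with a fold change of -0.21.

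Kinesins were split, 3 positive and 2 negative with a median of 0.06. KIF4A, which lies on chromosome X (70290090-70420832, GRCh38, plus strand) and helps shape chromosomes and the central spindle, had the largest SE of the 42 genes. Its level was 86.1, 124 and 47.6 CPM in the B2 set and 24.5, 149 and 29.7 CPM in the DMSO set. DMSO held both the highest and the lowest library, and the log2 fold change was 0.34 (SE 0.69), moving to -0.04 without DMSO replicate 1 and 1.63 without DMSO replicate 2. KIF20A, a kinesin of cytokinesis, was at 92.0, 95.4 and 39.0 CPM against 41.2, 100.4 and 47.0 CPM. KIF2C, which depolymerises microtubules at centromeres, had its lowest levels in the number 3 libraries, 124 CPM in the B2 set and 151 CPM in the DMSO set, and 204 to 254 CPM in the rest. KIF11 and KIF23, a kinesin of the central spindle, were both highest in DMSO replicate 2, at 17.5 and 39.2 CPM.

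At the centromere and kinetochore, 3 of 7 fold changes were positive and the median was -0.18. CENPE and CENPF, which bind kinetochores late in G2 and mitosis, had the largest positive values, 0.47 (SE 0.47) and 0.45 (SE 0.50). CENPF was at 60.9, 87.0 and 25.8 CPM in the B2 set and 27.5, 67.6 and 32.1 CPM in the DMSO set, and CENPE at 12.1, 17.1 and 6.49 CPM against 4.68, 12.4 and 8.62 CPM. In both genes B2 replicate 2 was highest of the 6 and the groups overlapped. NDC80 was the one member with its highest mean level in number 3, at 10.2, 12 and 14.5 CPM in the B2 set and 12.5, 16.8 and 15.8 CPM in the DMSO set. NUF2, its direct partner, ranged from 11.7 to 18.0 CPM. SPC24 and SPC25, which form the inner end of the same complex, had different top libraries, DMSO replicate 1 at 65.6 CPM for SPC24 and DMSO replicate 2 at 40.7 CPM for SPC25. CENPA was lowest in the number 3 libraries, at 28.7 and 26.8 CPM, and between 37.2 and 52.0 CPM in the others.

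In the passenger complex, which corrects wrong attachments, BIRC5 (survivin) was at 58.4, 52.8 and 41.3 CPM in the B2 set and 81.1, 45.1 and 41.3 CPM in the DMSO set. CDCA8 (borealin) was also highest in DMSO replicate 1, at 200 CPM, whereas INCENP was highest in B2 replicate 1, at 134 CPM. All 3 had their 2 lowest values in the number 3 libraries, and their fold changes of -0.13, -0.12 and 0.20 were each within 1 SE of 0.

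TPX2, the highest of the 42 per length, was at 660, 780 and 324 CPM in the B2 set and 269, 843 and 317 CPM in the DMSO set. The libraries spanned a wide range within each group, and the groups overlapped, with a log2 fold change of 0.30 (SE 0.51). NUSAP1, a microtubule bundler at chromosomes, stood at 147 CPM in DMSO replicate 2 and at 50.8 to 71.4 CPM in the other 5, which gave -0.52 (SE 0.43) and 0.11 without that library. HMMR and DLGAP5, both spindle proteins, and TOP2A, the topoisomerase that untangles sister chromatids, had fold changes of -0.23, -0.34 and -0.02.

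Of the genes of the midzone and cytokinesis, PRC1, which crosslinks the microtubules of the central spindle, had the highest fold change of the 42. It was at 147, 188 and 102 CPM in the B2 set and 75.1, 159 and 69.4 CPM in the DMSO set, higher with B2 in each numbered pair, although the groups overlapped. The log2 fold change was 0.52 (SE 0.39, adjusted p 1.00) and stayed positive, from 0.31 to 0.97, when any 1 library was left out. RACGAP1, which forms the centralspindlin complex with KIF23, was at 75.0, 104 and 50.2 CPM in the B2 set and 33.0, 122 and 41.8 CPM in the DMSO set, with a log2 fold change of 0.22 (SE 0.52). ANLN, a scaffold of the contractile ring, and ECT2 had fold changes of -0.24 and -0.15.

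**Figure D2:**
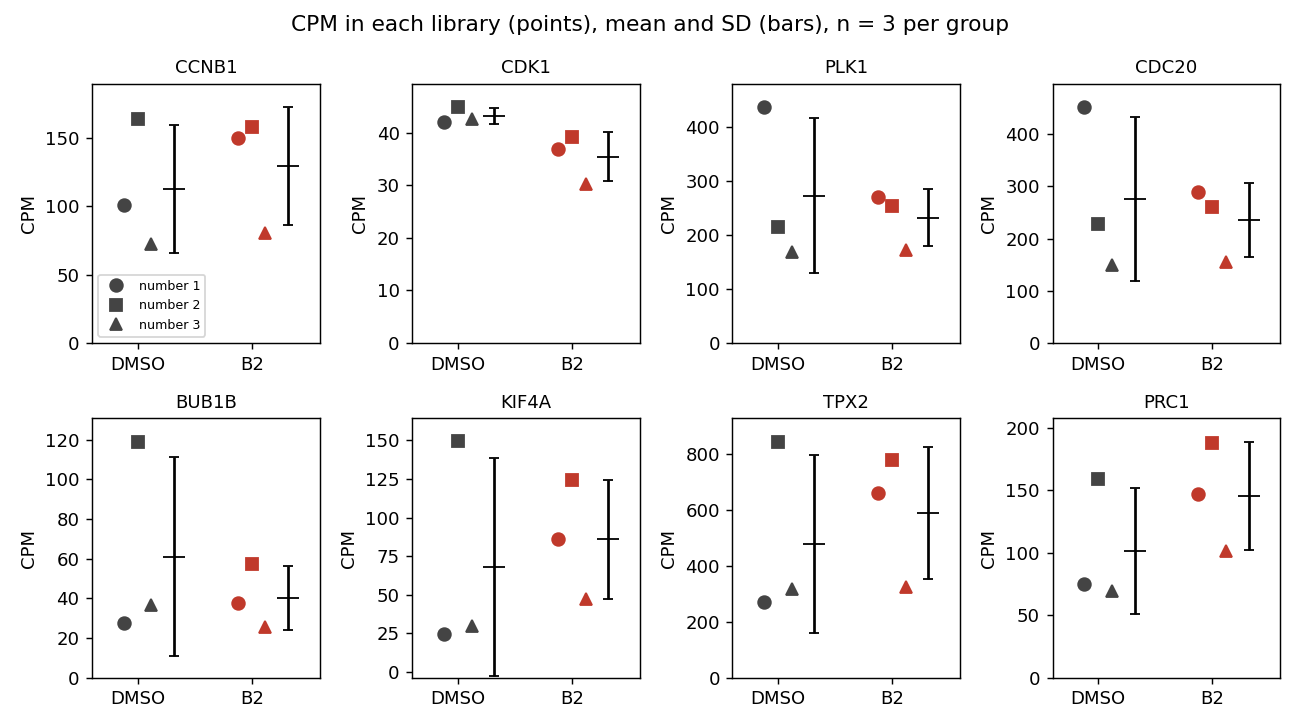
CPM (y axis) of 8 genes in each DMSO (black) and B2 (red) library, with symbols for replicate numbers 1 to 3 and the mean with SD bars (n = 3). The groups overlap in all 8 but CDK1, and the bar of KIF4A in DMSO reaches below 0 because its SD (70.6 CPM) exceeds its mean (67.8 CPM).

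The second comparison asked how the genes differed between replicate numbers, with treatment in the fit. Number 3 was mostly the lowest and number 2 mostly the highest. The summed level of the 42 genes in number 3 was 54.7% of that in number 2 with B2 and 53.6% with DMSO, and 59.9% and 69.2% of that in number 1. Number 3 had the lowest mean in 37 of 42 genes (32.2% of all tested genes) and number 2 the highest in 32 (43.4% of all genes). In 38 genes number 3 was below number 2 both within B2 and within DMSO (40.9% of all genes), while 21 genes were below number 1 within both (26.6%). In 18 genes both number 3 libraries lay below the other 4 (12.1% of all genes). The macrophage markers ran the opposite way: CD14, a macrophage receptor, was at 0.36 to 1.29 CPM in numbers 1 and 2 and at 121 and 110 CPM in number 3 of B2 and DMSO, and SIGLEC1 at 2.79 to 3.78 CPM against 478 and 519 CPM. Both passed the test on replicate number, with adjusted p of 2.27e-06 and 4.26e-07 by edgeR. The part of that marker difference in the levels of the 42 genes was not tested.

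**Figure D3:**
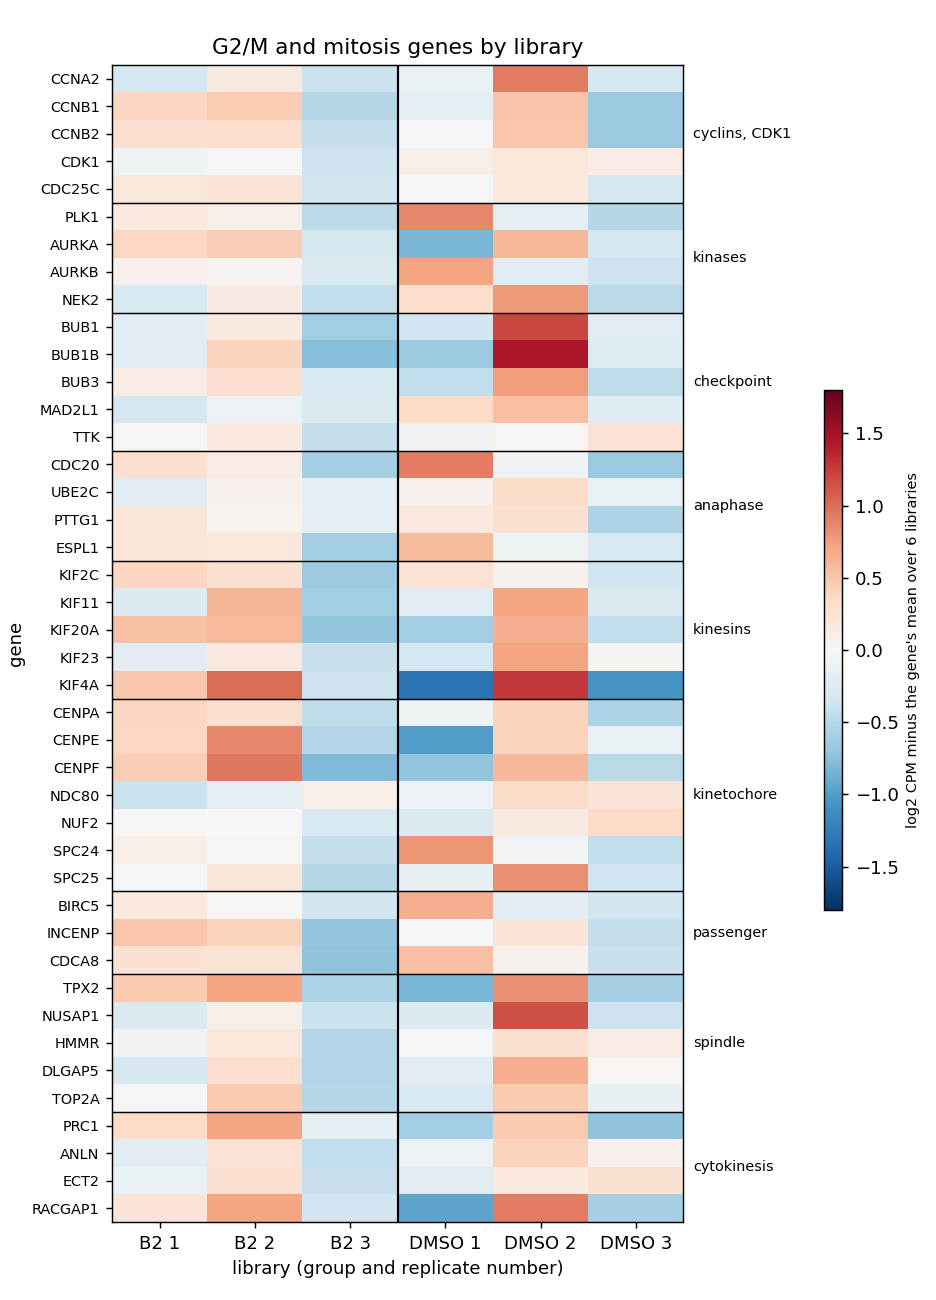
Log2 CPM of each gene (rows, by role) in each library (columns), minus the gene's mean over the 6 libraries, with red above and blue below the mean. Both number 3 columns are mostly blue (the lowest library was a number 3 library in 34 of 42 genes), and DMSO 2 is the reddest column (highest in 25).

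By edgeR's F test on replicate number, 461 of 17224 genes passed an adjusted p of 0.05 (2.68%), among them 0 of the 42, and the smallest adjusted p of the 42 was 0.052 for KIF4A. At an unadjusted p under 0.05 there were 20 of the 42 and 21.8% of all genes. The count of members depended on single libraries and tools. It was 8 by DESeq2 and 6 by limma-voom, where the count over all genes was 1673 and 1288. Leaving out 1 library also changed the count of members in some fits, both at the adjusted threshold and at the unadjusted one. Each of these fits left a replicate number with 1 library.

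For number 3 against number 2, 41 of 42 log2 differences were negative, with a median of -0.76 against -0.12 for all tested genes, and 11 members were over 2-fold lower, as were 13.7% of all genes. KIF4A alone passed the adjusted threshold as lower (0.778% of all genes did), at -1.94 (SE 0.44, edgeR adjusted p 0.0367). It was not called without B2 replicate 3 (-1.90, adjusted p 0.186), without DMSO replicate 2 (-1.03, 0.589) or without DMSO replicate 3 (-1.99, 0.250), nor with library totals as the only scaling (-2.07, 0.104). DESeq2 and limma-voom called 11 and 9 members lower, beside 605 and 541 of all genes. The median of the 42 was -0.70 without B2 replicate 1, -0.71 without DMSO replicate 1 and -0.68 without B2 replicate 2. For all tested genes it was then -0.05, -0.07 and -0.05. Without B2 replicate 3, DMSO replicate 2 or DMSO replicate 3 the median of the 42 was -0.61, -0.61 and -0.81. All tested genes then had medians of -0.10, 0.03 and -0.17. BUB1B (-1.46), CENPF (-1.37), TPX2 (-1.35) and RACGAP1 (-1.33) came next after KIF4A, with adjusted p of 0.0653, 0.0755, 0.0709 and 0.0745. NDC80 had the only positive value, 0.09, and NUF2, its partner, was at -0.02.

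Number 3 against number 1 gave 38 negative differences of 42, with a median of -0.29 against 0.05 for all tested genes, and 0 members were called lower (0.18% of all genes were). The values depended on single libraries. Without B2 replicate 1 the negative differences numbered 25 and the median was -0.10. Without B2 replicate 3 the negative differences numbered 28, and without DMSO replicate 1 the median was -0.48. DESeq2 called 3 members lower and limma-voom 1, beside 148 and 65 of all genes. The most negative were CDC20 at -1.27 (SE 0.32, adjusted p 0.0743) and PLK1 at -1.03 (SE 0.32, adjusted p 0.176) by edgeR. CDC20 passed with DESeq2 (adjusted p 0.00497) and with limma-voom (0.0185). By edgeR it passed with counts divided by 4 (0.00896), without the treatment term (0.0377) and with the GC trend removed (0.0462). It did not pass with RLE size factors, with library totals only or with no filter on low counts. Nor did it pass when any single library other than B2 replicate 1 was left out, each fit then leaving a number with 1 library. Number 2 against number 1 gave 33 positive differences, a median of 0.39 against 0.16, and 0 members called higher (0.029% of all genes). Without B2 replicate 1, which leaves number 1 with 1 library, KIF4A was at 2.23 and BUB1B at 1.84. PLK1, AURKB and CDC20 were then at -1.13, -1.04 and -1.11. By DESeq2, KIF4A (1.43, adjusted p 0.0320) and BUB1B (1.22, 0.0456) were called higher. The share of all genes called higher was not counted for DESeq2. The median of number 2 against number 1 was 0.20 without DMSO replicate 2 and 0.25 without DMSO replicate 1, with -0.01 and 0.02 for all tested genes. With each library's GC trend taken out, it was 0.25, below the 0.34 of all tested genes. The 9 genes with their highest mean in number 1 were PLK1, AURKB, CDC20, PTTG1, ESPL1, KIF2C, SPC24, BIRC5 and CDCA8. The 5 genes lowest in number 1 were KIF23, NDC80, NUF2, DLGAP5 and ECT2.

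**Figure D4:**
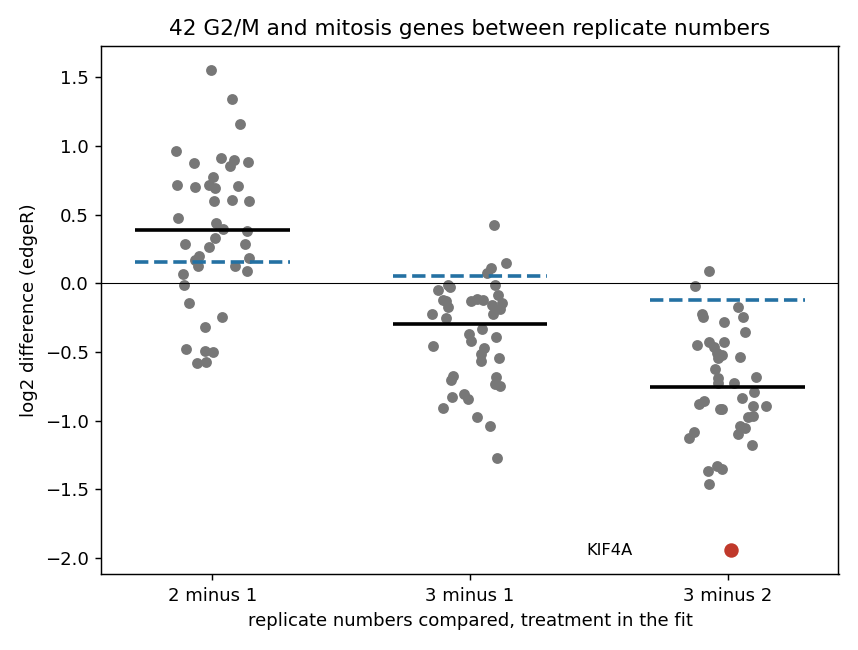
Log2 differences between replicate numbers (y axis) for the 42 genes, 1 point a gene, from the edgeR fit with treatment. Black lines are the medians of the 42 (0.39, -0.29 and -0.76), dashed blue lines those of all tested genes (0.16, 0.05 and -0.12), and the red point is KIF4A, the member past the adjusted threshold.

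The top DMSO library of a gene differed with base composition in part. The 7 genes that peaked in DMSO replicate 1 (PLK1, AURKB, CDC20, ESPL1, SPC24, BIRC5 and CDCA8) had transcripts with 51.0% to 58.6% GC, median 57.1%. The 25 that peaked in DMSO replicate 2 ranged from 35.6% to 51.6%, median 43.4%, and over all tested genes 24.9% peaked in the first of these libraries and 32.8% in the second. Across the 42 genes, which share libraries and are not independent, the log2 ratio of DMSO replicate 1 to DMSO replicate 2 correlated with GC content at Pearson's r = 0.47 and Spearman's rho = 0.33. INCENP, with the highest GC content of the 42 (59.9%), went against this, at 95 CPM in DMSO replicate 1 and 113 CPM in DMSO replicate 2, and was among the 8 genes that peaked in a B2 library. The log2 ratio of DMSO replicate 1 to DMSO replicate 3 correlated with GC content at Pearson's r = 0.72 and Spearman's rho = 0.63, ranging from -0.88 for CENPE to 1.6 for CDC20. The ratio of DMSO replicate 2 to DMSO replicate 3 did not follow GC in this way (r = 0.02, rho = 0.10) and was positive in 39 of 42, with a median of 0.67. B2 replicate 2 over B2 replicate 3 was positive in 41 of 42, with a median of 0.74 and r = -0.03. B2 replicate 1 over B2 replicate 2 had r = 0.62, and B2 replicate 1 over B2 replicate 3 had r = 0.39. For B2 over DMSO of the same number, r was -0.19, 0.34 and 0.46 in numbers 1, 2 and 3. A correlation within the 42 does not describe a shift of all 42 together. Over all tested genes with a GC value, each library's log2 CPM minus the gene's mean over all libraries was correlated with GC content. Spearman's rho of that correlation ran from -0.56 in DMSO replicate 2 to 0.47 in DMSO replicate 1. In B2 replicate 2 it was -0.28. The 42 genes had a median GC content of 45.2%, against 50.8% for all tested genes. With each library's GC trend taken out, an alternative chosen after the data were seen, number 3 against number 2 was negative in 40 of 42 with a median of -0.69 (all genes -0.19). KIF4A was then at -1.72 with an adjusted p of 0.0869, and CDC20 was called, at -1.04 with an adjusted p of 0.0402. Number 2 against number 1 then had a median of 0.25 (all genes 0.34), and number 3 against number 1 one of -0.38 (all genes 0.18). The part of base composition in the differences between numbers was not tested.

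**Figure D5:**
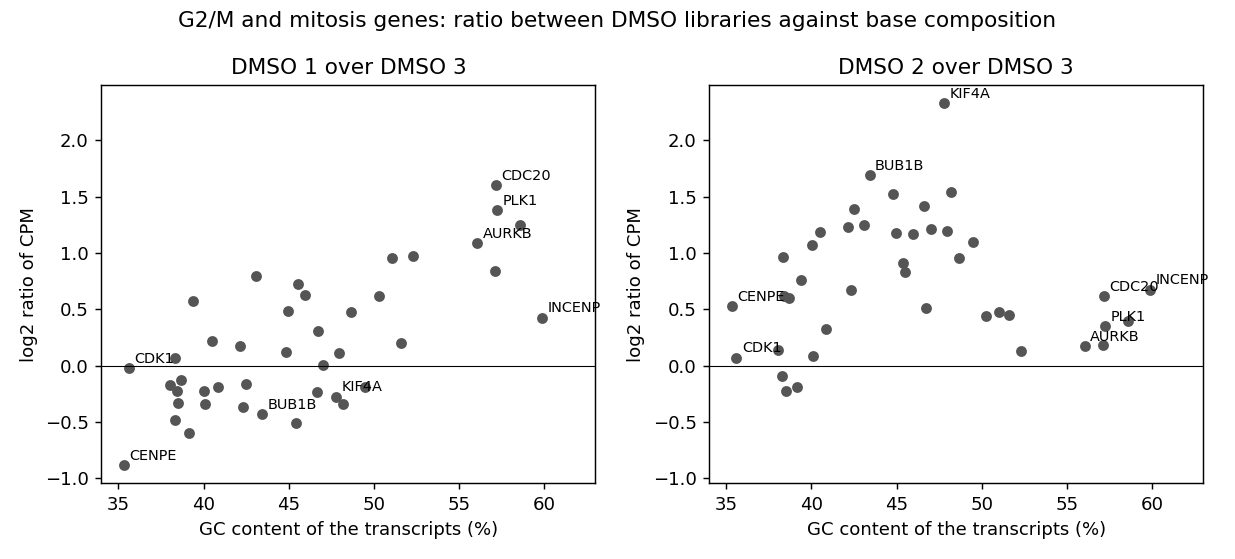
Log2 ratio of CPM between DMSO libraries (y axis) against the GC content of the transcripts in percent (x axis), 1 point for each of the 42 genes. Replicate 1 over replicate 3 is higher at high GC (r = 0.72), while replicate 2 over replicate 3 is above 0 in 39 genes with no such trend (r = 0.02).

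Genes of the same pathway outside the 42 were mostly lower in number 3 as well. Of 77 other G2/M and mitosis genes, 0 were called between B2 and DMSO, 25 fold changes were positive and 52 negative, and the median was -0.08. NSL1, CENPK and CEP55 had the smallest p of these, with log2 fold changes of -0.54, -0.51 and -0.42 and adjusted p of 1.00. Number 3 was lowest in 52 of the 77 (32.2% of all genes), and the median of number 3 against number 2 was -0.74. CENPI, a constitutive centromere protein, passed the F test on replicate number (edgeR adjusted p 0.0411), at 13.7, 23.3 and 9.53 CPM in the B2 set and 12.5, 34.8 and 7.67 CPM in the DMSO set. STIL and MKI67 came next, with adjusted p of 0.0797 and 0.0847. MKI67, the source of the Ki-67 proliferation marker, was at 101, 140 and 72.5 CPM in the B2 set and 45.7, 211 and 56.9 CPM in the DMSO set. Like KIF4A, it was highest in DMSO replicate 2 and lowest in DMSO replicate 1. The activators FOXM1 and MYBL2 were highest in DMSO replicate 1, as were PLK1 and CDC20. FOXM1 was at 199, 184 and 116 CPM with B2 against 249, 160 and 122 CPM, and MYBL2, which encodes B-MYB, at 450, 417 and 302 CPM against 759, 369 and 287 CPM.

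Of 45 DNA replication genes, 38 had their lowest mean in number 3 (32.2% of all genes did). Against number 2 their median was -0.75 and 6 were called lower (0.778% of all genes were), and 0 were called between B2 and DMSO. MCM2, part of the replicative helicase, was at 385, 373 and 221 CPM in the B2 set and 570, 316 and 241 CPM in the DMSO set. PCNA, the sliding clamp of DNA polymerases, was at 263, 330 and 212 CPM against 212, 449 and 203 CPM. Among 23 cell cycle inhibitors and repressors, 0 were called between B2 and DMSO and 1, BTG2, passed the F test on replicate number (2.68% of all genes did). Most of this list was not higher in number 3: 15 of 23 differences from number 2 were negative, with a median of -0.19, and number 2 was highest in 11 genes and number 3 in 6. BTG2, an antiproliferative gene, was at 24.3, 17.6 and 57.7 CPM in the B2 set and 22.3, 18.5 and 72.3 CPM in the DMSO set (adjusted p 0.0125 by edgeR), so it was highest in both number 3 libraries. CDKN1A, which encodes the CDK inhibitor p21, was at 75.8, 62.4 and 137 CPM in the B2 set and 111, 58.0 and 136 CPM in the DMSO set. Its difference of 1.18 between numbers 3 and 2 had an adjusted p of 0.0648.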

How the data were processed

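Total RNA of 6 U937 libraries was sequenced, and the authors deposited estimated counts (expected counts) per Ensembl gene, not normalized and whole as deposited. Per the submitters' processing notes, reads were aligned with HISAT2 2.0.4. How they were counted (tool, strand, build, gene models) is not given in the sources used here. Among low values, 4 occurred 6465 times against 3144 times for 3, so counts divided by 4 were one alternative. Symbols matched 60401 of 60612 identifiers. Positions came from GENCODE 29 (GRCh38), not from the authors' files.

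Genes were filtered with filterByExpr (minimum count 10, minimum total 15), which left 17224, and tested with edgeR 4.0.16 in R 4.3.3 (quasi-likelihood, TMM factors 0.86 to 1.07, Benjamini-Hochberg over all tested genes, threshold 0.05). Treatment was the only term of the first comparison. Replicate number was tested with 2 degrees of freedom in a fit that kept treatment, then by pairs. A prior count of 2 entered the log2 CPM behind the numbered pairs, the correlations between libraries and each library's correlation with GC content. Log2 ratios of CPM between libraries and the map of log2 CPM by library used no prior count. The scripts were tested on simulated data. DESeq2 1.42.0 and limma-voom 3.58.1 were alternatives, beside other scaling, no filter, a replicate block, removal of a GC trend and leaving out each library.

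All 42 members were named. Other lists were given by counts and medians, with preset genes and up to 3 with the smallest p named. Marker lists were given by summed CPM. ELANE, CTSG, MPO, MRC1, CD3D, CD3E, CD3G and MS4A1 were named from them without having been preset. Members and lists were chosen with earlier results of these data known. After subtracting group means, libraries that share a number correlated across genes at 0.21, 0.40 and 0.50, each above 0.1, and all 6 libraries correlated best with their own number. Pairing by number rests on these values alone.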

Additional observations from a re-analysis of the deposited data

How the results depend on the processing

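In the comparison of B2 with DMSO, 0 of the 42 genes were called under all 17 alternatives. Over all genes the count was 0, except 1 with DESeq2 and 48 with a replicate block and both number 3 libraries left out, and it was 0 to 1 when 1 library was left out, with the 1 without B2 replicate 2. With the replicate block alone, 0 genes were called. PRC1, at 0.59, was then the 1 member at an unadjusted p under 0.05, and the block changed no other call. Of the 42 fold changes, 27 changed sign under at least 1 alternative, 17 of them only when a library was left out. The test on replicate number called 461 genes. It called 956 with RLE size factors, 266 with library totals only, 2379 with counts divided by 4, 1673 with DESeq2, 1288 with limma-voom, 993 at an adjusted p under 0.1 and 846 without both number 1 libraries, and 388 to 4124 when 1 library was left out. Members called by it were 0, but 2 with RLE size factors, 8 with counts divided by 4, 8 with DESeq2, 6 with limma-voom, 3 at an adjusted p under 0.1 and 8 without both number 1 libraries, and 0 to 19 when 1 library was left out. The cause was not tested. Number 3 against number 2 was negative in 36 to 42 of the 42 genes. Its median was -0.87 with library totals only (all genes -0.24) and -0.68 with RLE size factors (all genes -0.04). Where a left-out library leaves a replicate number with 1 library, that library is assumed to vary like the others. With 3 libraries a group and counts of at least 261, the spread between libraries limits these comparisons, not depth.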
